A study of Mus musculus with 6 samples.

Results

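The comparison set the RNA-seq library labelled SMAD3-/-, a homozygous knockout of Smad3, against the library labelled beta-2SP+/- ; SMAD3+/-, which is doubly heterozygous for Sptbn1 (beta-2-spectrin, listed as Spnb2 in the count tables) and Smad3. Its members were the genes with at least 1 CPM (read count relative to the scaled library total) in either of these libraries, 13583 of the 25793 genes in the tables. Both libraries came from primary mouse embryonic fibroblasts (MEFs) of E13.5 embryos from matings of Sptbn1+/- and SMAD3+/- mice, grown in DMEM/F12 with 10% fetal bovine serum. They are called the labelled homozygote and the labelled double heterozygote below, because the Smad3 counts run against both labels. The labelled homozygote carries no labelled Sptbn1 mutation, and the labelled double heterozygote carries 1 mutant allele of each gene, so the pair differs in both genes. The other 4 libraries of the series (WT, Sptbn1 heterozygote, Sptbn1 homozygote and Smad3 heterozygote, always given in this order) serve as a range. There was 1 library per genotype. The labels do not say how many embryos each library holds, whether embryos were pooled, or which part of either gene the knockout alleles remove, and MEFs are a mixed embryonic culture and no clone.

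With 1 library per genotype, no difference could be tested against the spread between embryos. Each ratio therefore compares 2 libraries and not 2 genotypes. It is given as fold higher or lower in the labelled homozygote, with an exact 95% Clopper-Pearson interval in parentheses that covers counting error only. A gene is called higher or lower where that whole interval lies beyond 2-fold. Of the 13583 genes, 12092 reached 1 CPM in both libraries, 445 only in the labelled homozygote and 1046 only in the labelled double heterozygote. Another 12210 genes were not compared, and 7382 of them had no count in either library. A count of 0 allows up to 3 counts, which is 0.133 CPM in the labelled homozygote and 0.0955 CPM in the labelled double heterozygote.

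SMAD3 is one of the intracellular transducers of transforming growth factor beta (TGF-beta). Activated receptors phosphorylate it, it joins SMAD4, and the complex enters the nucleus and binds DNA beside other factors. Beta-2-spectrin is a membrane skeleton protein that has been described as an adaptor for SMAD3 and SMAD4. In fibroblasts the pathway is known for raising collagen and contractile proteins, and in immune cells for holding back inflammatory genes.

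The targeted genes did not follow the labels. Smad3 stood at 106 CPM in the labelled homozygote and 203 CPM in the labelled double heterozygote, against 53.3, 57.7, 57.2 and 79.5 CPM in the other 4 libraries. The library labelled as lacking both copies was thus above WT, and the ratio between the pair was 1.91-fold lower (1.82 to 2), which was not called. A count per gene cannot show a missing exon, so these levels do not settle the genotype. Spnb2 stood at 1022 CPM and 695 CPM, against 1419, 1071, 771 and 1556 CPM in the others, 1.47-fold higher (1.44 to 1.5) and not called. Its order ran with the labels for this pair, since the labelled double heterozygote had the lower level. Every direction given below is a direction between the libraries that carry these labels.

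The pair stood apart from the other 4 libraries in read make-up. Counts on genes came to 21329087 and 31125055, against 6856680 to 11407587 in the others, and uniquely placed reads outside any gene made up 12.2% and 11.9% of all records, against 30.9% to 32.6%. Reads placed at several sites made up 38.9% and 32.5% of records. Of the 12 markers fixed for fibroblasts, the labelled cell type, 12 reached 1 CPM in both libraries. Markers of endothelial, Schwann, erythroid, cardiac, liver and pluripotent cells summed to under 10 CPM for each type in each library of the pair, as did those of skeletal muscle. Markers of mesothelium and gonad summed to 35.9 CPM in the labelled homozygote and 48.3 CPM in the labelled double heterozygote (13.3 to 38.3 CPM in the other 4). Neuronal markers summed to 48.9 and 9.08 CPM (6.78 to 17.8 in the other 4) and epithelial markers to 37.7 and 3.15 CPM (5.45 to 16.3 in the other 4). Those of macrophages are given with the immune genes. Transcripts of Y-linked genes were present in both libraries, with Ddx3y at 188 CPM and 143 CPM and Xist at 0.311 CPM and 0.0637 CPM.

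Across the genes compared, 1514 were higher in the labelled homozygote (11.1% of 13583) and 2328 were lower (17.1%), and 9741 were neither. The median log2 ratio was 0.01. Among the 12092 genes at 1 CPM or more in both libraries, 1247 were higher (10.3%) and 1569 lower (13%). These intervals leave out the spread between cultures. If the 4 other libraries are taken as 1 group, their spread (a coefficient of variation of 0.185) would require a ratio of at least 3.34-fold at high counts, and 640 genes were then higher and 1592 lower. If the spread around a model of allele dose over all 6 libraries is taken (0.467), a ratio of 7.30-fold is required, and 216 were higher and 850 lower.

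Where the pair differed, one or the other library could lie outside the range of the other 4 by more than 2-fold. Both libraries of the pair also differed from those 4 in read make-up, as given above. Here and below, a place outside that range cannot be told apart from this difference in make-up. Of the 1514 genes called higher, the labelled homozygote lay above that range for 653 (43.1%) and the labelled double heterozygote lay below it for 347 (22.9%). Of the 2328 called lower, the labelled homozygote lay below the range for 1262 (54.2%) and the labelled double heterozygote above it for 747 (32.1%). Over all 13583 genes, the labelled homozygote was above for 15.2% and below for 14.2%, and the labelled double heterozygote was above for 13.8% and below for 7.08%. These shares are the background against which the gene groups below can be read. For 773 of the 13583 genes both libraries of the pair lay above the range, and for 390 both lay below it.

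**Figure D1:**
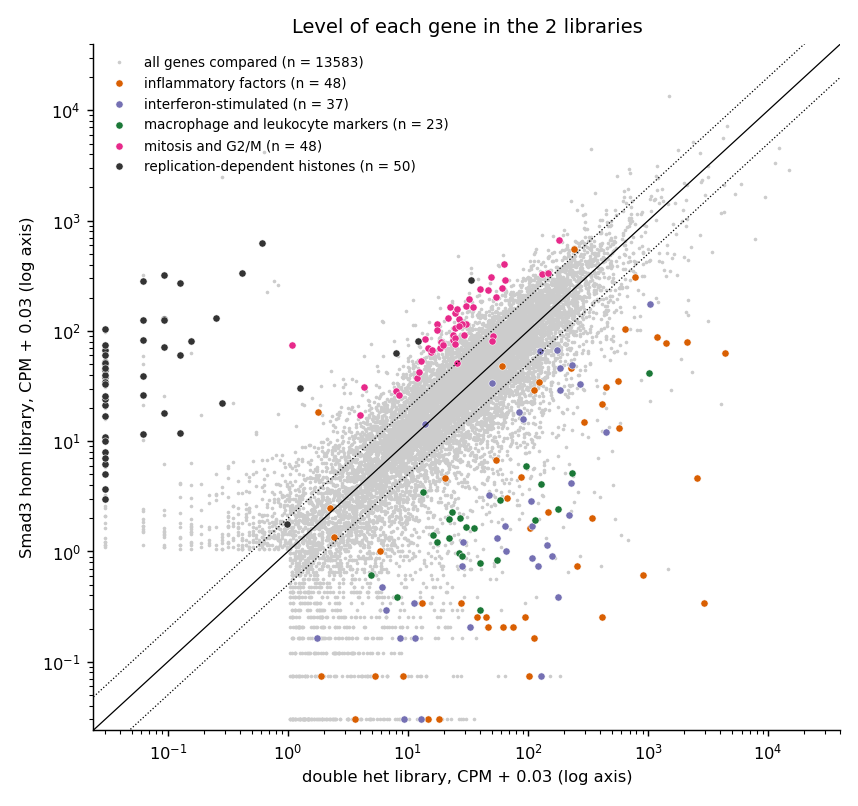
CPM of each gene compared in the labelled double heterozygote (x axis, log scale) against the labelled homozygote (y axis, log scale), 1 point per gene, with 0.03 CPM added. Colours mark 5 gene groups and lines mark equal levels and 2-fold either way. Most of the 13583 genes follow the diagonal, the 48 inflammatory factors and 37 interferon-stimulated genes reach to the lower right, the 48 mitosis genes lie mostly above the upper 2-fold line, and most of the 50 histone genes lie at the upper left.

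Markers of macrophages and other leukocytes were lower in the labelled homozygote throughout the list. Of 28 listed genes, 23 passed the filter, 7 of them only through the labelled double heterozygote, and 5 stayed below it. All that passed, 23 of 23, were called lower, with a median log2 ratio of -4.42 (-4.46 with genes at 0 placed at their bound) beside 0.01 over all genes. Among the 16 at 1 CPM or more in both libraries, 16 were lower. Ptprc (CD45), carried by all leukocytes, stood at 0.933 CPM in the labelled homozygote, 26.4 CPM in the labelled double heterozygote and 30.9, 26.5, 33.3 and 27.9 CPM in the other 4. Lyz2, the lysozyme of macrophages and granulocytes, stood at 41.2 CPM, 1025 CPM and 1631, 1073, 971 and 1621 CPM. In both genes the labelled homozygote alone was low, and the labelled double heterozygote lay inside or just below the range of the other 4. The adhesion receptor gene Emr1 (F4/80) was 74.3-fold (interval 56.9 to 99.1) lower, the integrin chain Itgam 59.8-fold (interval 44.3 to 82.8) lower and the endotoxin co-receptor Cd14 44.7-fold (interval 37.2 to 54.1) lower. The labelled homozygote lay below the other 4 libraries for 23 of the 23 genes. Over the 12 defining markers fixed for this cell type the summed level was 61.9 CPM in the labelled homozygote, 1656 CPM in the labelled double heterozygote and 1597 to 2436 CPM in the other 4, and none was at 0 in either library of the pair. In bulk RNA, fewer cells of a type and less RNA per cell cannot be told apart. In the labelled homozygote the summed levels of interferon-stimulated genes (584 CPM against 2600 to 3737 in the other 4), class I presentation genes (356 against 2140 to 3753) and inflammatory factors (1608 against 1799 to 2875) were also below the other 4, while that of NF-kB genes (542 against 319 to 435) was above them. In the labelled double heterozygote the class I sum (3436 CPM) lay within the other 4, as the marker sum did, while those of interferon-stimulated genes (4780 CPM), inflammatory factors (22004 CPM) and NF-kB genes (2488 CPM) lay above them. The part of the macrophage markers in these results was not tested.

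Interferon-stimulated genes were lower in the labelled homozygote, which stood below the other libraries for most of them. Of 38 listed genes, 37 were in the tables and compared, 34 were called lower and 0 higher, with a median log2 ratio of -5.22 (-5.23 with genes at 0 at their bound). Of these, 16 passed the filter only through the labelled double heterozygote, and among the 21 at 1 CPM or more in both libraries 18 were lower. Widening the intervals left 33 lower with the spread of the other 4 libraries and 27 with that of all 6. The labelled homozygote lay below the other 4 libraries for 33 of 37 genes, whereas the labelled double heterozygote lay above them for 7.

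Isg15, a ubiquitin-like protein joined to other proteins after interferon, had 19 counts (0.844 CPM) in the labelled homozygote and 3374 counts (107 CPM) in the labelled double heterozygote, against 164, 119.6, 142 and 113 CPM in the other 4, and was 127-fold (interval 81.4 to 212) lower. Ifit1, which binds foreign 5' RNA ends, stood at 0.888 CPM, 158 CPM and 88.8, 58.2, 76.8 and 44.2 CPM, and was 178-fold (interval 115 to 291) lower. Oasl2, of the oligoadenylate synthetase family, stood at 0.355 CPM, 178 CPM and 174, 127, 133 and 85.9 CPM. The 5 libraries other than the labelled homozygote thus shared a level within a few-fold for these genes. The dynamin-like GTPase gene Mx2 had no count in the labelled homozygote and 12.7 CPM in the labelled double heterozygote, at least 95.4-fold lower. Among the regulators, the transcription factor genes Irf7 and Stat2 were 38.4-fold (interval 27.9 to 54.4) and 8.14-fold (interval 7.55 to 8.78) lower, and the RNA and DNA sensor gene Zbp1 184-fold (interval 71.8 to 678) lower. The guanylate-binding proteins, which attack vacuoles of intracellular parasites, showed a second feature. Gbp2 stood at 12 CPM in the labelled homozygote, 444 CPM in the labelled double heterozygote and 48.7, 29.6, 48.6 and 23.2 CPM in the other 4, so that the labelled double heterozygote was also high. Gbp5 had 1 count and 4009 counts, a ratio of 2874-fold (interval 516 to 113562), with 0.872 to 2.84 CPM in the other 4. The members not called were Ifit2, Ifi35 and Eif2ak2, with log2 ratios of -0.55, 0.04 and -0.93.

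Promoters of 3 such genes are shown because the group differed together and because interferon-regulated factors are known to act through a short response sequence. The windows run from 250 bases before to 50 bases after the RefSeq gene start in the GRCm38.p6 assembly, which is not the mm9 build of the count tables, so that genes were joined by symbol and not by position. The motif searched was GAAA NN GAAA (N stands for any base) on both strands, and capitals mark its matches. It was found in 17 of 32 windows (53.1%) of the 28 listed genes matched, and in 3.44% of all 32851 windows. A match describes letters and shows no binding. The windows below are Isg15 at chr4:156200769-156201068 on the minus strand, with 3 overlapping matches that start 78, 72 and 66 bases before the gene start; Ifit1 at chr19:34640639-34640938 on the plus strand, with matches 104 and 85 bases before; and Cxcl10, a chemokine described further on, at chr5:92348840-92349139 on the minus strand, with 1 match 213 bases before.
Isg15: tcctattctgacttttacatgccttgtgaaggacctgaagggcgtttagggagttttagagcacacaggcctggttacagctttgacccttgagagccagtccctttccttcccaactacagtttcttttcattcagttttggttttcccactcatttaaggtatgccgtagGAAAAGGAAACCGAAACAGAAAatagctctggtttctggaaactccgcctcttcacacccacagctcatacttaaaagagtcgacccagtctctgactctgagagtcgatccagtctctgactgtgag
Ifit1: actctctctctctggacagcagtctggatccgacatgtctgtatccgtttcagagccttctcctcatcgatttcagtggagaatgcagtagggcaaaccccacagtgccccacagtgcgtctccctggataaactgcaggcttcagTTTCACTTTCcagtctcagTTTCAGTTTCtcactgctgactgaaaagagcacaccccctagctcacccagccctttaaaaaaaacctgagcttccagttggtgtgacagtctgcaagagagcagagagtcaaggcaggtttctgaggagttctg
Cxcl10: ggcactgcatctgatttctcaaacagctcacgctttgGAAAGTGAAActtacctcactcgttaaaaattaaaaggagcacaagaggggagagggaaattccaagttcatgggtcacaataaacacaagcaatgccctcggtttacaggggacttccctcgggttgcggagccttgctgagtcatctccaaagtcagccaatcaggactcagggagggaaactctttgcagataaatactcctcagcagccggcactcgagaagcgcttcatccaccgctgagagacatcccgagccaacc

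Genes of antigen presentation on major histocompatibility complex (MHC) class I, which interferon raises, were lower in 14 of 15 cases and higher in 0, with a median log2 ratio of -3.42. Among the 12 at 1 CPM or more in both libraries, 12 were lower. The class I heavy chain gene H2-D1 stood at 20.1 CPM in the labelled homozygote, 447 CPM in the labelled double heterozygote and 979, 728, 839.9 and 515 CPM in the other 4. The light chain gene B2m stood at 199 CPM, 1156 CPM and 2209, 1856, 1925 and 1302 CPM. For both chains the labelled homozygote was far below the rest and the labelled double heterozygote was the next lowest. The peptide transporter Tap2 and its partner tapasin (Tapbp) differed otherwise, because the labelled double heterozygote was above the rest. Tap2 stood at 6.09 CPM against 136 CPM, with 6.88 to 12.5 CPM in the other 4, and Tapbp at 35.7 CPM against 875 CPM, with 84 to 159.9 CPM. The immunoproteasome subunit genes Psmb8 and Psmb10 were 42.9-fold (interval 31.8 to 59.2) and 6.04-fold (interval 5.4 to 6.78) lower. Sequence shared among class I heavy chain genes makes the split of reads between H2-D1 and H2-K1 uncertain.

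Inflammatory factors, mostly secreted proteins with some enzymes and adhesion molecules, were lower in the labelled homozygote as well. Here the labelled double heterozygote was the library that stood apart more often. Of 49 listed genes 48 were compared, 43 were called lower and 2 higher, with a median log2 ratio of -5.37 (-5.39 with genes at 0 at their bound). Of these, 21 passed only through the labelled double heterozygote, and among the 27 at 1 CPM or more in both libraries 22 were lower and 2 higher. The labelled double heterozygote lay above the other 4 libraries for 31 of 48 genes, and the labelled homozygote below them for 20. The wider intervals left 42 lower with the spread of the other 4 libraries and 36 with that of all 6.

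Among the acute-phase and complement genes, Saa3, a serum amyloid protein made by stimulated fibroblasts and macrophages, had 7 counts (0.311 CPM) in the labelled homozygote and 90852 counts (2893 CPM) in the labelled double heterozygote, against 104, 42, 139 and 155 CPM in the other 4. Its ratio was 9306-fold (interval 4516 to 23146). Complement component C3 stood at 4.58 CPM, 2530.4 CPM and 54.1, 34.2, 90.9 and 75.2 CPM. For both genes the pair lay on opposite sides of the other 4 libraries. Complement factor B (Cfb) was 1557-fold (interval 911 to 2925) lower and haptoglobin (Hp) 361-fold (interval 222 to 631) lower.

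Of the chemokines, which draw leukocytes, 10 of 11 in the CXC group (Cx3cl1 included) and 9 of 10 in the CC group were lower and 0 higher, with 5 genes of each group having passed only through the labelled double heterozygote. Cxcl5, a neutrophil attractant, stood at 63.7 CPM in the labelled homozygote, 4351 CPM in the labelled double heterozygote and 41.2, 17.5, 21.2 and 85.8 CPM in the other 4. The labelled homozygote lay within the range of the others for Cxcl5, and the labelled double heterozygote alone was high. Ccl5, an attractant of T cells and monocytes, stood at 0.222 CPM, 409 CPM and 65.8, 39.8, 65.6 and 19.9 CPM, low in the one library and high in the other. Cxcl10, an interferon-induced attractant of T cells, had 1 count and 3183 counts, a ratio of 2282-fold (interval 409 to 90169.6), against 7.61, 3.53, 2.69 and 7.56 CPM in the other 4. Ccl20 stood at 0.178 CPM against 74.3 CPM, with 0.0969 to 0.708 CPM elsewhere. Cxcl9 had no count in the labelled homozygote and 18.2 CPM in the labelled double heterozygote, at least 136-fold lower.

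Of the cytokines, tumour necrosis factor (Tnf) stood at 0.222 CPM, 44.3 CPM and 5.4, 4.71, 5.68 and 7.95 CPM. Il1b had no count in the labelled homozygote and 14.6 CPM in the labelled double heterozygote, at least 109-fold lower. The granulocyte growth factor gene Csf3 was 170.4-fold (interval 72.8 to 526) lower. The 2 members called higher were Il11 and Ptgs2. Il11, a cytokine of the interleukin-6 family that TGF-beta is known to raise, stood at 18.3 CPM in the labelled homozygote, 1.75 CPM in the labelled double heterozygote and 0.265, 0.147, 0.448 and 2.42 CPM in the other 4. Ptgs2, the inducible enzyme of prostaglandin synthesis, stood at 555 CPM, 243 CPM and 172, 87.2, 164 and 261 CPM. For both, the labelled homozygote was the highest of the 6 libraries.

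The subunits of NF-kB, a transcription factor family that drives many of these genes, and its feedback inhibitors were lower in 13 of 14 cases and higher in 0 (median log2 ratio -2.28). Among the 13 at 1 CPM or more in both libraries, 12 were lower. The labelled double heterozygote lay above the other 4 libraries for 12 of the 14, while the labelled homozygote lay below them for 2 and above them for 3. Nfkbia, which encodes the inhibitor IkB-alpha, stood at 35.8 CPM in the labelled homozygote, 366 CPM in the labelled double heterozygote and 8.67, 5.6, 8.07 and 7.66 CPM in the other 4. Both libraries of the pair were thus above the rest, the second much more so. Tnfaip3 (A20), a ubiquitin-editing inhibitor, was 18.3-fold (interval 16.3 to 20.7) lower and Nfkbie 22.3-fold (interval 18.4 to 27.4) lower. Of the subunits, Rela stood at 60.3 CPM, 154 CPM and 52.2, 49.9, 49.3 and 51.9 CPM, and Relb was 5.11-fold (interval 4.62 to 5.66) lower and Nfkb2 4.41-fold (interval 4.15 to 4.69) lower. Under the wider intervals 10 of the 14 were lower (other 4 libraries) and 6 (all 6). The NF-kB motif, GGGA N TTTCC, was found in 3 of 14 windows (21.4%) of the 11 listed genes matched, those of Nfkb2 and Nfkbia, and in 0.411% of all windows. The window of Nfkbia, at chr12:55492598-55492897 on the minus strand, shows 1 match that starts 29 bases before the gene start, in capitals.
Nfkbia: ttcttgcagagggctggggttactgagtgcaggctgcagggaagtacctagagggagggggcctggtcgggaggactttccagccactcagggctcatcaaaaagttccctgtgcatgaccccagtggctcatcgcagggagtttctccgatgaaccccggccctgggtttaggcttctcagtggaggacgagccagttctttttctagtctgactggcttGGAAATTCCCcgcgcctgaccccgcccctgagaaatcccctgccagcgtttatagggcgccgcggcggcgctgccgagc

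**Figure D2:**
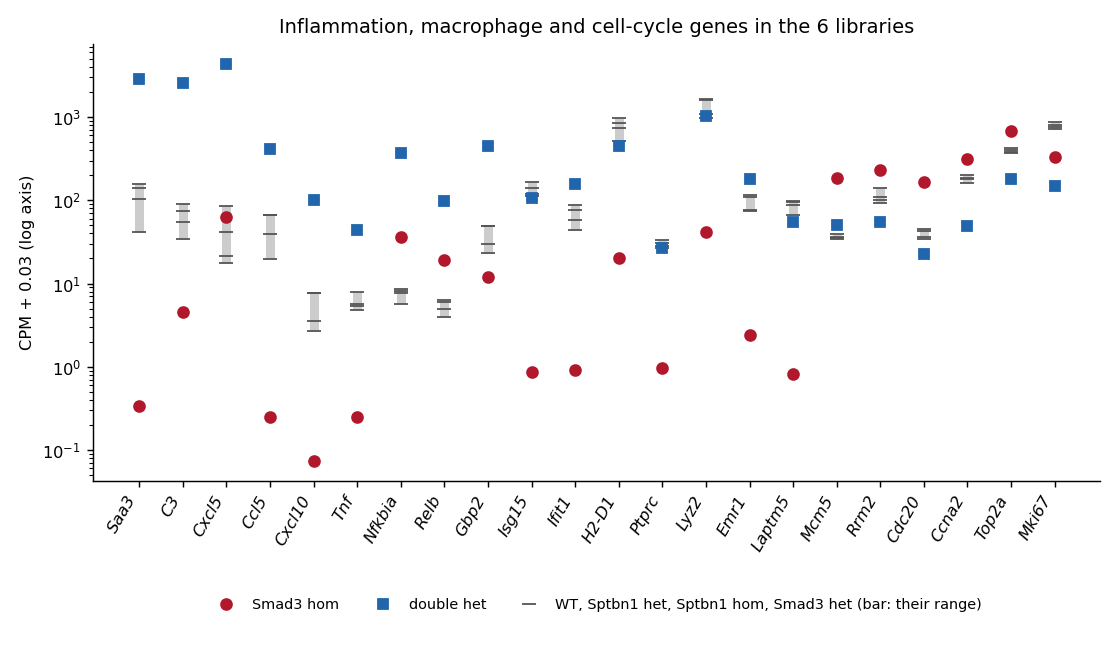
CPM (log scale, y axis) of 22 genes of inflammation, interferon response, macrophage identity and the cell cycle in each of the 6 libraries (circles, labelled homozygote; squares, labelled double heterozygote; dashes and bar, the other 4 and their range; 0.03 CPM added; 1 library per genotype, no error bars). The labelled homozygote lies at the foot for Isg15, Ptprc and H2-D1, the labelled double heterozygote lies at the top for Saa3, Cxcl5 and Nfkbia, and the labelled homozygote is highest for Mcm5 and Cdc20.

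Genes of the cell cycle were higher in the labelled homozygote. Of the 48 genes of mitosis and the G2/M transition, all at 1 CPM or more in both libraries, 45 were called higher and 0 lower, with a median log2 ratio of 2.04. The 3 not called were Incenp, Cdc25b and Foxm1, with log2 ratios of 0.80, 1.01 and 0.69. The labelled double heterozygote lay below the other 4 libraries for 28 of the 48, beside 7.08% of all genes, and the labelled homozygote lay above them for 13. Cdc20, an activator of the anaphase-promoting complex, stood at 166 CPM in the labelled homozygote, 22.3 CPM in the labelled double heterozygote and 34.4, 35.8, 45.6 and 42.7 CPM in the other 4, and was 7.43-fold (interval 6.86 to 8.07) higher. Cyclin A2 (Ccna2) stood at 311 CPM, 49.6 CPM and 178, 163, 183 and 200.1 CPM. For both genes the 4 other libraries lay between the members of the pair. Among the kinases, Aurka was 6.63-fold (interval 6.05 to 7.29) higher and Bub1b 5.96-fold (interval 5.57 to 6.39) higher, and among the motor proteins Kif20a 6.08-fold (interval 5.72 to 6.47) and Kif4 6.07-fold (interval 5.58 to 6.6) higher. Mki67, which encodes the proliferation antigen Ki-67, went differently in level: 335 CPM and 148 CPM, against 718, 753, 864 and 809.9 CPM in the other 4. Both libraries of the pair were below the rest for it, although their ratio was 2.26-fold (interval 2.18 to 2.35) higher. Cyclin B1 (Ccnb1) was 71.6-fold (interval 50.8 to 104) higher, but near-identical copies of this gene in the mouse genome make its count uncertain. The count of 45 became 39 under the wider intervals from the other 4 libraries and 2 under those from all 6.

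DNA replication genes were higher in 33 of 42 cases and lower in 0, with a median log2 ratio of 1.48, and all 42 were at 1 CPM or more in both libraries. In this group the labelled homozygote stood apart more often, above the other 4 libraries for 19 of 42 genes beside 15.2% of all genes, whereas the labelled double heterozygote lay below them for 3. Mcm5, a subunit of the replicative helicase, stood at 187 CPM in the labelled homozygote, 50.8 CPM in the labelled double heterozygote and 34.9, 34, 36.2 and 39.8 CPM in the other 4, and was 3.68-fold (interval 3.47 to 3.9) higher. Rrm2, a subunit of ribonucleotide reductase, stood at 229 CPM, 54 CPM and 101, 109, 92.3 and 141 CPM. Mcm5 was high in the labelled homozygote, with the labelled double heterozygote just above the others, and for Rrm2 the pair bracketed the others. Cyclin E2 (Ccne2) was 5.66-fold (interval 5.01 to 6.41) higher, the clamp loader gene Rfc5 4.27-fold (interval 3.73 to 4.9) higher and the polymerase alpha gene Pola1 3.78-fold (interval 3.48 to 4.12) higher. The 9 not called included the transcription factor genes E2f1 and E2f2, which leaned the other way with log2 ratios of -1.01 and -1.17. The wider intervals left 9 of 42 with the spread of the other 4 libraries and 0 with that of all 6. DNA repair genes were higher in 15 of 21 cases and lower in 0, with a median log2 ratio of 1.42; Fanca, of the Fanconi anaemia core complex, was 3.78-fold (interval 3.34 to 4.29) higher, the nuclease gene Exo1 4.3-fold (interval 3.78 to 4.89) and Brca1 2.68-fold (interval 2.43 to 2.96) higher. Of the repair genes 4 were higher under the wider intervals from the other 4 libraries and 0 under those from all 6.

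Promoters of the cell-cycle genes are shown for the same reason as above. The cell-cycle homology region motif (CHR), searched as TTTGAA, was found in 28 of 41 windows (68.3%) of the 39 mitosis genes matched, and in 17.9% of all windows. The E2F motif, searched as TTTNGCGC, was found in 11 of 38 windows (28.9%) of the 33 replication genes matched, and in 1.38% of all windows. Both strands were searched and capitals mark the matches. The window of Cdc20 lies at chr4:118437294-118437593 on the minus strand, with a CHR match that starts 18 bases before the gene start, and that of Mcm5 at chr8:75109259-75109558 on the plus strand, with overlapping E2F matches 153 and 149 bases before.
Cdc20: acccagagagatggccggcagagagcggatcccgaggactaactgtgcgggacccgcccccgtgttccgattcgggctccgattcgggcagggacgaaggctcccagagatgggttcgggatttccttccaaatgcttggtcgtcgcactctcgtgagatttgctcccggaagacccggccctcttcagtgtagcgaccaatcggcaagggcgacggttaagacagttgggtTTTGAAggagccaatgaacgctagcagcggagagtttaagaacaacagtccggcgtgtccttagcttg
Mcm5: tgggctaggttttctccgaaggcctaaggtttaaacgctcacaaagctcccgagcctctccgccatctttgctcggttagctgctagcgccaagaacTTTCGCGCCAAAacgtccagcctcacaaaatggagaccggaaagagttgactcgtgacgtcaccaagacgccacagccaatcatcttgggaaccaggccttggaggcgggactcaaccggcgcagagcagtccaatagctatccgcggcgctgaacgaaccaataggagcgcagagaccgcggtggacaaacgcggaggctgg

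Genes of p53 and of cell-cycle arrest gave no common direction, with 4 of 27 higher (14.8%), 4 lower (14.8%) and -0.11 as the median log2 ratio. Over all genes 11.1% were higher and 17.1% lower. Cdkn1a (p21), the cyclin-dependent kinase inhibitor that p53 raises, stood at 112 CPM in the labelled homozygote, 284 CPM in the labelled double heterozygote and 377, 309, 340.4 and 427 CPM in the other 4, and was 2.53-fold (interval 2.42 to 2.65) lower. Both libraries of the pair were below the others for it. Cdkn2a, whose products p16 and p19 rise as MEFs age in culture, stood at 5.02 CPM, 18.7 CPM and 0.531, 0.589, 0.747 and 1.26 CPM. Both libraries of the pair were above the others for Cdkn2a, and the labelled double heterozygote was highest. The death receptor gene Fas was 11.1-fold (interval 9.68 to 12.8) lower, and Plk2 3.13-fold (interval 2.99 to 3.26) higher. Passage number is not given in the labels.

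**Figure D3:**
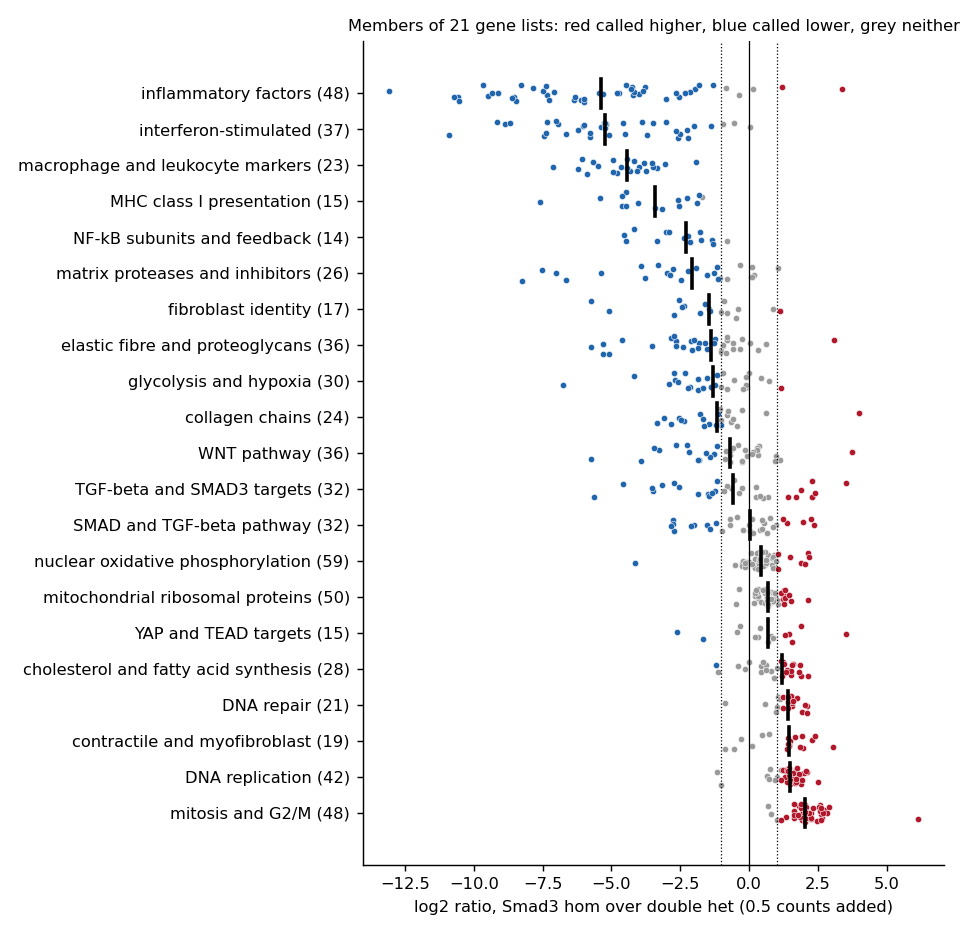
Log2 ratio of the labelled homozygote over the labelled double heterozygote (x axis) for each compared member of 21 gene lists (rows), 1 point per gene, with 0.5 counts added, a bar at each list's median and lines at 0 and at 2-fold in each direction. Immune lists lie left of 0 with medians down to -5.37, and replication and mitosis lie right of it at 1.48 and 2.04.

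Fibroblast matrix genes were lower in the labelled homozygote. Of 24 collagen chain genes compared, 14 were lower and 1 higher, with a median log2 ratio of -1.15, and among the 10 fibrillar chains 8 were lower and 1 higher. Col1a1, the main chain of type I collagen, stood at 2896 CPM in the labelled homozygote, 14982 CPM in the labelled double heterozygote and 9319, 9419, 9533 and 6903 CPM in the other 4, and was 5.17-fold (interval 5.13 to 5.22) lower. The pair lay on opposite sides of the other libraries. Col3a1 was 3.42-fold (interval 3.39 to 3.45) lower, Col5a3 8.41-fold (interval 8.06 to 8.77) and Col18a1, a basement membrane collagen, 5.78-fold (interval 5.51 to 6.07) lower. The chain called higher was Col2a1 of cartilage, at 151 CPM against 9.55 CPM, with 3.36 to 33.5 CPM elsewhere. Over the list the labelled double heterozygote lay above the other 4 libraries for 10 of 24 genes and the labelled homozygote below them for 4. Fibronectin (Fn1) stood at 1633 CPM, 9501 CPM and 7913, 7654, 8412 and 8064 CPM, so for it the labelled homozygote alone was low. Widened by the spread of the other 4 libraries, the intervals left 7 collagen genes lower, and 2 by that of all 6.

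Elastic fibre and proteoglycan genes were lower in 20 of 36 cases and higher in 1, with a median log2 ratio of -1.39. Of the 35 at 1 CPM or more in both libraries, 20 were lower and 0 higher. The small leucine-rich proteoglycans, which bind collagen fibrils and growth factors, gave 7 lower of 9 and 0 higher, with a median of -3.52. Decorin (Dcn) stood at 55.2 CPM in the labelled homozygote, 1885 CPM in the labelled double heterozygote and 1301, 985, 1075 and 903 CPM in the other 4. Lumican (Lum) stood at 29.4 CPM, 1565 CPM and 211, 238, 232 and 107 CPM, and biglycan (Bgn) at 681 CPM, 7808 CPM and 4652, 4631, 4642 and 3674 CPM. The labelled homozygote was the lowest library and the labelled double heterozygote the highest for all 3 genes. Their ratios were 34.2-fold (interval 32.3 to 36.2), 53.3-fold (interval 49.4 to 57.6) and 11.5-fold (interval 11.3 to 11.7) lower. Of the elastic fibre genes, elastin (Eln) was 6.25-fold (interval 5.78 to 6.76) lower and the microfibril gene Mfap4 40.0-fold (interval 35.9 to 44.8) lower, but the other 4 libraries themselves ranged from 6.49 to 243 CPM for Eln. Under the wider intervals 16 genes of the list were lower by the spread of the other 4 libraries and 6 by that of all 6.

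Matrix proteases and their inhibitors were lower in 18 of 26 cases and higher in 0, with a median log2 ratio of -2.06, and among the 23 at 1 CPM or more in both libraries 15 were lower. Mmp3 (stromelysin 1) stood at 21.9 CPM in the labelled homozygote, 4012 CPM in the labelled double heterozygote and 436, 176, 219 and 129.8 CPM in the other 4, a ratio of 184-fold (interval 168 to 201). The collagenase gene Mmp13 was 129-fold (interval 102 to 165) lower, the gelatinase genes Mmp2 and Mmp9 15.2-fold (interval 14.7 to 15.8) and 326-fold (interval 165 to 757) lower, and Mmp12, the macrophage elastase, 106-fold (interval 53.9 to 247) lower. Mmp9 and Mmp12 are also made by macrophages, whose markers moved with them as given above, and that part was not tested. The aggrecanase gene Adamts4 was 6.82-fold (interval 6.09 to 7.66) lower, and the inhibitor genes Timp2 and Reck were 2.91-fold (interval 2.85 to 2.98) and 4.61-fold (interval 4.19 to 5.07) lower. The labelled homozygote lay below the other 4 libraries for 15 of the 26 genes, and the labelled double heterozygote above them for 5. Under the wider intervals 14 were lower by the spread of the other 4 libraries and 10 by that of all 6.

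Among the genes that mark fibroblasts in general, 10 of 17 compared were lower and 1 higher, with a median log2 ratio of -1.44. The platelet-derived growth factor receptor genes Pdgfra and Pdgfrb were 5.45-fold (interval 5.32 to 5.59) and 2.67-fold (interval 2.59 to 2.75) lower. Vimentin (Vim), the mesenchymal intermediate filament, was the 1 called higher, at 5203 CPM against 2381 CPM, with 2362 to 2481 CPM in the other 4. The mesenchymal transcription factor genes Twist1, Twist2 and Prrx1 were not called, with log2 ratios of -0.42, -0.90 and -0.82. The markers that were lower were thus mainly matrix genes (8 of 8) and not the transcription factors (0 of 3).

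**Figure D4:**
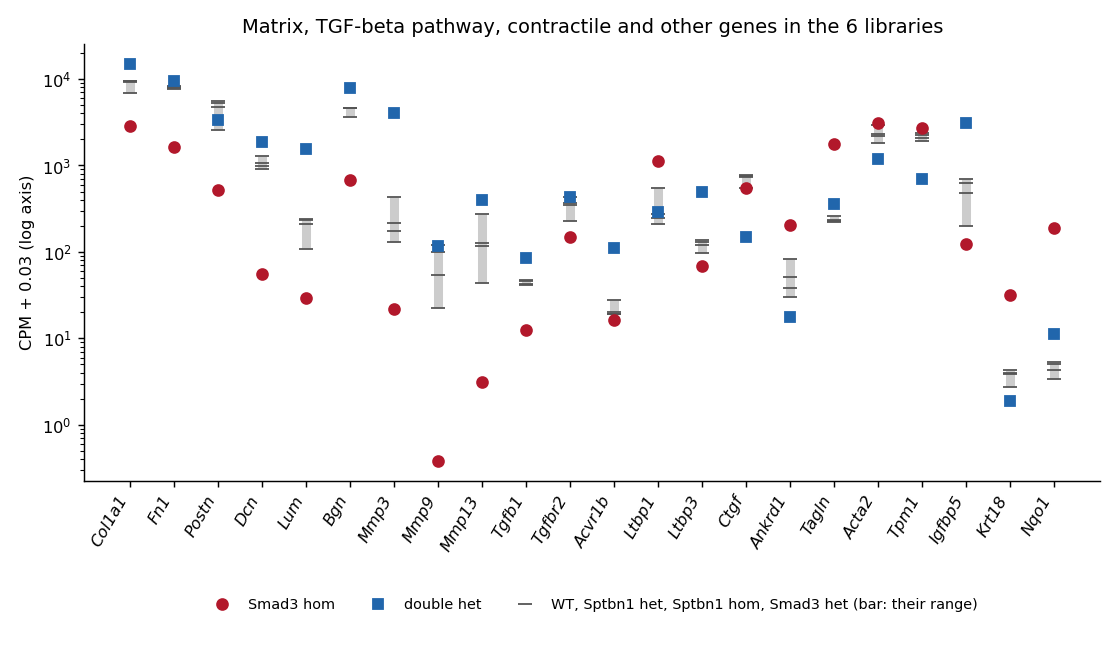
CPM (log scale, y axis) of 22 genes of matrix, TGF-beta signalling, contraction and metabolism in each of the 6 libraries (circles, labelled homozygote; squares, labelled double heterozygote; dashes and bar, the other 4 and their range; 0.03 CPM added; no error bars). The labelled homozygote lies lowest and the labelled double heterozygote highest for Dcn, Lum, Bgn and Mmp3, and the order is the reverse for Ankrd1 and Acta2.

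TGF-beta pathway genes themselves were called in both directions. Of 32 compared, 5 were higher and 9 lower, with a median log2 ratio of 0.03. With the wider intervals from the other 4 libraries 3 were higher and 6 lower, and with those from all 6 libraries 0 and 0, so the counts by role that follow hold for intervals of counting error only. Among the 6 ligands 1 was lower and 0 higher: Tgfb1 stood at 12.5 CPM in the labelled homozygote, 84.1 CPM in the labelled double heterozygote and 47, 42.3, 46.6 and 41.1 CPM in the other 4, 6.72-fold (interval 5.94 to 7.62) lower. The ligand genes Tgfb2 and Tgfb3 had log2 ratios of -0.68 and 0.03. Of the 7 receptors 4 were lower and 0 higher. The type II receptor gene Tgfbr2 was 2.9-fold (interval 2.8 to 3.02) lower, the co-receptor gene Tgfbr3 (betaglycan) 4.01-fold (interval 3.84 to 4.19), Acvr1b 6.8-fold (interval 6.1 to 7.59) and endoglin (Eng) 2.67-fold (interval 2.37 to 3.02) lower, while the type I receptor gene Tgfbr1 leaned the other way, 1.98-fold (interval 1.88 to 2.09) higher and not called. The transducer genes Smad2 and Smad4 had log2 ratios of 0.78 and 0.02, and Smad9, which serves the BMP branch, was the 1 of 5 called, 5.14-fold (interval 4.08 to 6.52) higher. Of the 9 inhibitors 3 were higher and 0 lower. Smad7, which blocks the receptor and is itself a TGF-beta target, was 2.58-fold (interval 2.38 to 2.8) higher, and follistatin (Fst), which traps activins, 4.77-fold (interval 4.44 to 5.12) higher. Of the 5 extracellular regulators 4 were lower and 1 higher: the latent TGF-beta binding protein genes Ltbp2, Ltbp3 and Ltbp4 were 6.63-fold (interval 6.42 to 6.85), 7.11-fold (interval 6.75 to 7.49) and 4.37-fold (interval 3.97 to 4.81) lower, and Ltbp1 was 3.88-fold (interval 3.78 to 3.97) higher.

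The known targets of TGF-beta and SMAD3 in fibroblasts were also called in both directions, with 8 of 32 higher, 13 lower and -0.60 as the median log2 ratio. Connective tissue growth factor (Ctgf) stood at 543 CPM in the labelled homozygote, 148 CPM in the labelled double heterozygote and 737, 555, 746 and 783 CPM in the other 4, so for it the labelled double heterozygote was low and the labelled homozygote near the rest. Id1 was 4.93-fold (interval 4.42 to 5.5) higher and the chromatin protein gene Hmga2 3.25-fold (interval 3.15 to 3.37) higher. On the lower side were Postn (periostin), 6.58-fold (interval 6.45 to 6.71), Itga11, the fibroblast collagen-binding integrin, 11.4-fold (interval 9.99 to 13), Snai1, 2.79-fold (interval 2.51 to 3.1), and Angptl4, 23.9-fold (interval 21.5 to 26.6). By role, matrix and adhesion targets gave 2 higher and 8 lower of 14, and transcription factors 2 and 2 of 8. With the wider intervals from the other 4 libraries 6 targets were higher and 8 lower, and with those from all 6 libraries 1 was higher and 5 lower. BMP pathway genes gave 3 higher and 2 lower of 19 compared, beside 11.1% and 17.1% of all genes. At 1 CPM or more in both libraries 14 were left, with 1 higher and 2 lower.

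Contractile and myofibroblast genes were higher in the labelled homozygote in 13 of 19 cases and lower in 0, with a median log2 ratio of 1.44. Tagln (transgelin) stood at 1769 CPM in the labelled homozygote, 358 CPM in the labelled double heterozygote and 229.7, 220.4, 237 and 262 CPM in the other 4, and was 4.94-fold (interval 4.84 to 5.05) higher. Acta2, the smooth muscle actin of myofibroblasts, stood at 3141 CPM, 1189 CPM and 1799, 2309, 2194 and 2975 CPM. For Tagln the labelled homozygote was high, and for Acta2 the labelled double heterozygote was low. Calponin (Cnn1) was 5.33-fold (interval 4.98 to 5.71) higher, tropomyosin 1 (Tpm1) 3.81-fold (interval 3.75 to 3.87) and the myosin light chain gene Myl9 3.85-fold (interval 3.71 to 4.01) higher. Of the regulators, Srf, which binds the promoters of these genes, was 2.61-fold (interval 2.45 to 2.78) higher, and its coactivator genes Mkl1 and Mkl2 had log2 ratios of -0.89 and -0.53 and were not called. The labelled double heterozygote lay below the other 4 libraries for 5 of the 19 genes and the labelled homozygote above them for 1. With the wider intervals from the other 4 libraries 6 were higher, and from all 6 libraries 1. Targets of YAP and TEAD, which respond to cell spreading, gave 5 higher and 2 lower of 15. Ankrd1 was 11.5-fold (interval 10.5 to 12.6) and Cyr61 2.71-fold (interval 2.63 to 2.8) higher, and the factor gene Tead1 was 3.17-fold (interval 3.05 to 3.3) lower.

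**Figure D5:**
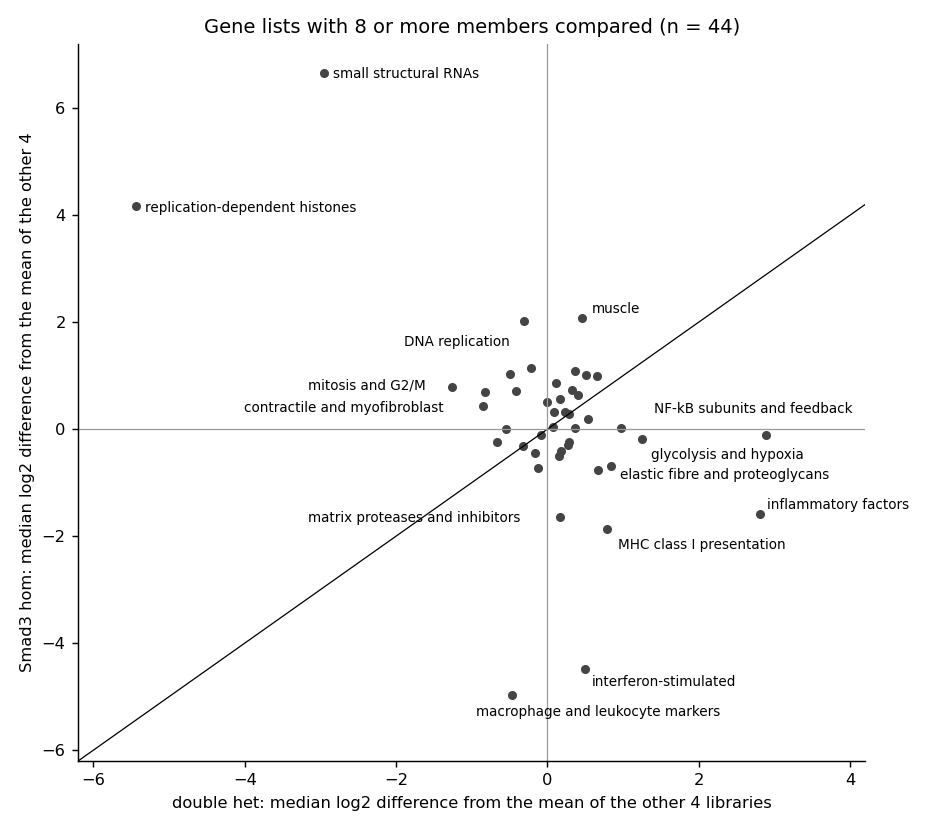
Median log2 difference from the mean of the other 4 libraries for each list with 8 or more compared members (44 lists), in the labelled double heterozygote (x axis) and in the labelled homozygote (y axis), 1 point per list, with the line of equal differences. Interferon and macrophage lists lie low on the y axis, inflammatory factors lie to the right, and mitosis lies to the left; lists near the diagonal differ little between the pair.

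Integrin genes gave 4 higher and 5 lower of 18. The laminin-binding chain gene Itga6 was 8.75-fold (interval 8.01 to 9.57) higher and Itga3 3.51-fold (interval 3.15 to 3.92) higher, whereas the collagen-binding chain genes Itga1 and Itga11 were 7.52-fold (interval 6.71 to 8.46) and 11.4-fold (interval 9.99 to 13) lower. The common chain gene Itgb1 was not called, at 1939.6 CPM against 1297 CPM.

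Genes of other cell types were called in both directions. Summed levels in the labelled homozygote and the labelled double heterozygote were low for muscle genes (76.4 and 17.9 CPM). They were high for bone genes (3078 and 7329 CPM), both below the 7730 to 10176 CPM of the other 4 libraries. For cartilage genes they were lower and in the opposite order (177 and 74.2 CPM, with 65.9 to 110 CPM in the other 4). Of 15 skeletal and cardiac muscle genes compared, 9 were higher and 0 lower, and 10 of the 15 passed the filter only through the labelled homozygote, so this count is fixed in part by the filter. Myogenin (Myog) stood at 2.35 CPM against 0.159 CPM and was at 0 in the other 4, and skeletal actin (Acta1) at 35 CPM against 3.63 CPM, inside the 2.8 to 46.9 CPM of the other 4. Of 8 epithelial markers compared 5 were higher and 1 lower. The 4 keratins compared were all higher, 1 of them having passed only through the labelled homozygote, whereas the 4 junction and surface genes gave 1 higher and 1 lower with a median log2 ratio of -0.56. Krt18 stood at 31.4 CPM in the labelled homozygote, 1.85 CPM in the labelled double heterozygote and 3.89, 3.98, 4.33 and 2.71 CPM in the other 4, and Krt8, its partner, was 22.3-fold (interval 10.5 to 56.8) higher. Of 6 neuronal genes compared 5 were higher, but 3 of the 6 passed only through the labelled homozygote. Among them were the growth-cone protein gene Stmn2, 5.36-fold (interval 4.7 to 6.13), and the tubulin gene Tubb3, 4.4-fold (interval 4 to 4.84). Of 7 Schwann and neural crest genes 1 was higher and 0 lower, with a median of -0.10. Mesothelial, kidney and gonad genes gave 1 higher and 0 lower of 11. Of 7 endothelial genes 3 were lower and 0 higher, with 2 of the 7 having passed only through the labelled double heterozygote. Of 8 adipocyte and lipid uptake genes 4 were lower and 1 higher. Lipoprotein lipase (Lpl) was 15.7-fold (interval 13.8 to 17.9) lower and the adipocyte regulator gene Pparg 12-fold (interval 8.49 to 17.5) higher. Of 16 cartilage and bone genes 8 were lower and 3 higher, and among the 11 at 1 CPM or more in both libraries 5 were lower and 1 higher, with Comp 52.7-fold (interval 27.6 to 116) lower, Runx2 2.52-fold (interval 2.2 to 2.91) lower and Acan 8.73-fold (interval 5.79 to 13.6) higher.

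Glycolysis and the response to low oxygen went apart. Of 14 glycolysis genes 1 was higher and 2 lower, while of 16 hypoxia-response genes 15 were lower and 0 higher. Epas1, which encodes the hypoxia-inducible factor HIF-2alpha, stood at 1.29 CPM in the labelled homozygote, 141 CPM in the labelled double heterozygote and 14.2, 13.8, 11.2 and 14.1 CPM in the other 4, on both sides of the others. Adrenomedullin (Adm) was 6.38-fold (interval 6.01 to 6.79) lower, Ndrg1 7.52-fold (interval 6.92 to 8.18) lower and the carbonic anhydrase gene Car9 19.4-fold (interval 9.21 to 48.8) lower. Vegfa was 2.62-fold (interval 2.5 to 2.76) lower. The glycolytic enzyme genes Ldha and Aldoa were not called, with log2 ratios of -0.23 and -0.08. The list as a whole had the labelled double heterozygote above the other 4 libraries for 13 of 30 genes and the labelled homozygote below them for 5. Under the wider intervals 11 of the 30 were lower by the spread of the other 4 libraries and 3 by that of all 6.

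Cholesterol synthesis genes were higher in 14 of 19 cases and lower in 1. Farnesyl diphosphate synthase (Fdps) was 4.47-fold (interval 3.91 to 5.13) higher and lanosterol synthase (Lss) 3.72-fold (interval 3.48 to 3.98) higher. The member called lower was Srebf2, 2.33-fold (interval 2.22 to 2.44), which encodes the factor that raises these enzymes when sterol is low. Of 9 fatty acid synthesis genes 1 was higher, Fasn (2.55-fold (interval 2.48 to 2.62)), and 0 lower. With the wider intervals from the other 4 libraries 4 genes of both roles together were higher and 0 lower, and with those from all 6 libraries 0 and 0.

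Among the genes that answer to oxidants, Nqo1, the quinone reductase and a target of NRF2, stood at 191 CPM in the labelled homozygote, 11.1 CPM in the labelled double heterozygote and 3.36, 5.3, 4.33 and 5.04 CPM in the other 4, 17.2-fold (interval 15.4 to 19.3) higher. The labelled homozygote was far above the rest, and the labelled double heterozygote was second. Of 12 NRF2 targets 5 were higher and 2 lower. Txnrd1 was 2.68-fold (interval 2.6 to 2.76) and Gclc 2.96-fold (interval 2.65 to 3.31) higher, and Hmox1, heme oxygenase 1, 2.4-fold (interval 2.25 to 2.56) lower. The metallothionein genes Mt1 and Mt2, which bind zinc and copper, were 6.76-fold (interval 6.17 to 7.43) and 54.6-fold (interval 46.6 to 64.3) lower, and the zinc exporter gene Slc30a1 4.38-fold (interval 3.71 to 5.2) higher. Genes of endoplasmic reticulum stress and amino acid supply gave 3 higher (10%) and 2 lower (6.67%) of 30, below the 11.1% and 17.1% of all genes. With either set of wider intervals 0 were higher and 0 lower. The higher ones by counting error alone were Asns, Psat1 and Phgdh of asparagine and serine synthesis (2.39-fold (interval 2.28 to 2.5), 3.15-fold (interval 3.04 to 3.27) and 3.04-fold (interval 2.81 to 3.3)). Immediate-early genes gave 1 higher (4.76%) and 3 lower (14.3%) of 21, also below the shares of all genes.

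In the insulin-like growth factor (IGF) system 6 of 12 genes were lower and 0 higher. Igfbp5, a binding protein held in the matrix, stood at 123 CPM in the labelled homozygote, 3141 CPM in the labelled double heterozygote and 626, 697, 477 and 197 CPM in the other 4. Igf1 was 10.3-fold (interval 9.04 to 11.7) lower and stood at 11.1 CPM against 115 CPM and 139 to 311 CPM, so both libraries of the pair were below the rest for it. Igfbp3 was 14-fold (interval 13.55 to 14.5) and Igf2 3.48-fold (interval 3.44 to 3.53) lower. Of 17 imprinted genes 3 were higher and 4 lower, with Grb10, an adaptor that dampens insulin and IGF receptors, 2.89-fold (interval 2.84 to 2.94) higher and Dlk1 3.56-fold (interval 3.43 to 3.71) lower. WNT pathway genes were lower in 13 of 36 cases and higher in 1. At 1 CPM or more in both libraries 31 were left, with 9 lower and 0 higher. The receptor gene Lgr5 was 55.3-fold (interval 37 to 86.5) lower, the secreted antagonist genes Sfrp1 and Sfrp2 4.79-fold (interval 4.53 to 5.06) and 9.58-fold (interval 8.86 to 10.4) lower, and the WNT-inactivating enzyme gene Notum 13.7-fold (interval 8.02 to 25) higher. Growth factor signalling gave 9 higher and 11 lower of 36. Feedback genes of the ERK pathway leaned higher, 4 of 10 against 1 lower, with the phosphatase gene Dusp5 11.7-fold (interval 8.91 to 15.7) and Dusp6 2.62-fold (interval 2.43 to 2.83) higher. The ligand genes Hbegf and Areg of the epidermal growth factor family were 8.59-fold (interval 7.62 to 9.72) and 6.3-fold (interval 4.19 to 9.77) higher, and the receptor gene Fgfr1 3.55-fold (interval 3.42 to 3.68) lower.

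Of the Hox genes, which keep the position of origin along the body, few were called. Among 33 compared 1 was higher and 2 lower, with a median log2 ratio of -0.55. Hoxd13, of the distal limb, stood at 14.9 CPM in the labelled homozygote, 42.3 CPM in the labelled double heterozygote and 4.16, 0.883, 0.448 and 0.291 CPM in the other 4. Both libraries of the pair were above the rest for it. Of 28 other patterning factors 6 were higher and 5 lower, and of the 23 at 1 CPM or more in both libraries 4 and 4. The hindlimb factor gene Tbx4 was 6.01-fold (interval 5.29 to 6.86) lower and Six2 14.2-fold (interval 8.17 to 27.1) lower, and Foxd1 was 4.61-fold (interval 3.64 to 5.88) higher.

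Transcripts without a poly(A) tail differed by far more than most genes. The count tables list 61 replication-dependent histone genes. Of these, 50 passed the filter, 46 of them only through the labelled homozygote, and 49 were called higher and 0 lower. The direction of those 46 is fixed by the filter. Over the 50 genes the median log2 ratio was 10.05, or 8.77 with genes at 0 placed at their bound. The 4 at 1 CPM or more in both libraries were all higher, with a median of 3.04. Of the 61 genes, 35 had no count in the labelled double heterozygote. Summed over the list, the level was 4127 CPM in the labelled homozygote, 58.6 CPM in the labelled double heterozygote and 551 to 693 CPM in the other 4, so the pair lay on both sides of the rest. The linker histone gene Hist1h1e stood at 272 CPM, 0.0955 CPM and 117, 126, 138 and 122 CPM. Of 22 small structural RNAs compared, 21 were higher and 1 lower, but those 21 passed the filter only through the labelled homozygote, so their direction is fixed by the filter. Rmrp, the RNA of RNase MRP, stood at 2482 CPM, 0.255 CPM and 12.3, 16.9, 23.8 and 14.2 CPM, and overlaps another gene over most of its length. Rn7sk, which holds back transcription elongation, was 6863-fold (interval 4395 to 11399.9) higher. The 1 lower was 18S ribosomal RNA (Rn18s), at 349 CPM, 1529 CPM and 64661, 75405, 87248 and 75183 CPM. Malat1, a nuclear long RNA, stood at 4473 CPM, 335 CPM and 38532, 36898, 36111 and 30717 CPM, below the rest in both libraries of the pair. These RNAs have in common that they are short, nuclear or without a poly(A) tail, and the labels name the kit but not how RNA was selected. The histones listed with poly(A) tails gave 4 higher of 10 and 0 lower. Among these, Hist1h2bc is also in the replication-dependent list, so the lists overlap, and the count of H2afz is uncertain, as given below. Replication-dependent histones and the replication genes above were both higher in the labelled homozygote, but their places beside the other 4 libraries differed. The median log2 difference from the mean of those 4 was 4.17 in the labelled homozygote and -5.43 in the labelled double heterozygote over these histones. Over replication genes it was 1.14 and -0.22. A link between the 2 groups was not tested. With 1 CPM or more in both libraries, the median was 1.48 over replication genes and 3.04 over 4 of these histones.

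Several of the largest differences fell on genes whose counts are uncertain. Tuba1b and Tuba1c (tubulin chains), Actg1 (cytoplasmic actin), H2afz (a histone variant) and Stmn1 (stathmin) were higher by 328-fold (interval 222 to 507), 20.6-fold (interval 17.8 to 24), 18.5-fold (interval 17.2 to 19.9), 406-fold (interval 112 to 3359) and 108-fold (interval 46 to 335). All 5 have close relatives or processed copies in the genome, and reads placed at several sites were not counted on genes. Sco2 had 161 counts against 0, at least 74.8-fold higher, and overlaps another gene over most of its exon bases. The Tpt1 copy listed as Tpt1p was 2189.8-fold (interval 1328 to 3913) lower, at 0.666 CPM against 1459 CPM. Ribosomal protein genes, which have many such copies, gave 8 higher and 4 lower of 67 in the cytosolic set, and the mitochondrial set, which has fewer, gave 10 higher and 0 lower of 50 with a median log2 ratio of 0.69. Of the 58 cytosolic genes at 1 CPM or more in both libraries, 5 were higher and 1 lower. Nuclear genes of oxidative phosphorylation gave 7 higher (11.9%) and 1 lower (1.69%) of 59. Of all genes compared, 11.1% were higher and 17.1% lower. The higher shares of this set and of the cytosolic ribosomal set (11.9%) were thus near that of all genes.

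Among genes outside the fixed lists whose intervals lay farthest from 1-fold were several that stood high in the labelled double heterozygote alone or low in the labelled homozygote. Steap4, a metalloreductase raised by inflammatory cytokines, stood at 1.24 CPM in the labelled homozygote, 676 CPM in the labelled double heterozygote and 5.13, 3.39, 5.08 and 3.78 CPM in the other 4. Irg1, which makes itaconate in activated macrophages, had 1 count against 4804, with 25.9, 6.63, 19.4 and 6.49 CPM in the other 4. Mpa2l, of the guanylate-binding protein family, had 1 count against 5748, but overlaps another gene over much of its exons. The endotoxin-binding protein gene Lbp was 567-fold (interval 349 to 992) lower and the complement protease gene C1s 436-fold (interval 307 to 642) lower. On the higher side, Car8, a carbonic anhydrase-like protein of neurons, stood at 6.13 CPM against 0.0637 CPM, with 0.265 to 1.07 CPM in the other 4.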

How the data were processed

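Per the labels' protocols, total RNA (1 ug, TRIZOL) of 6 MEF cultures, 1 per genotype, went through an Illumina TruSeq RNA kit and Illumina sequencing. Per the submitters' processing notes, the tools included FastQC, Trimmomatic, TopHat2 2.0.10, HTSeq and DESeq2 with the mm9 build; their settings are not given in the sources used here. The authors deposited raw read counts per gene for each library. Here the 5 closing summary lines were left out of totals and tests, totals were scaled by TMM over the 6 libraries (edgeR 4.0.16, R 4.3.3), and ratios with exact Clopper-Pearson 95% intervals were computed in Python 3.11.15 with scipy 1.17.1. On the log2 scale 0.5 counts were added, and 0.1 CPM for the place among libraries. Common dispersions from edgeR widened the intervals as an alternative, and DESeq2 1.42.0 size factors were another. The ratio and its calls were run on simulated counts that held counting error only, the error the intervals assume. This run checks the computation and cannot bear on the spread between cultures. Named genes were the 2 targeted genes, the 15 with the interval bound farthest from 1-fold in each direction (leaving out predicted genes, pseudogenes, microRNAs, snoRNAs and histones), up to 4 per list, role and direction, and the 3 of highest level per list; Vegfa, E2f1, E2f2, Mkl1, Mkl2, Smad2, Smad4, Tgfb2, Tgfb3, Tgfbr1 and the members named as not called in the interferon and mitosis lists fall outside this rule and were named after their values were seen. The members and the gene lists (50, with 1355 distinct genes, 1326 of them in the tables) were chosen with earlier results of these data known. The 13 listed genes of the mitochondrial genome were not analysed here. RefSeq promoter windows (GRCm38.p6) were searched for motif letters on both strands.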

Additional observations from a re-analysis of the deposited data

Results flagged for a closer look

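Reads that overlapped more than 1 gene, which were set apart by the authors' counting and enter no comparison, made up 1.23% of uniquely placed reads in the labelled double heterozygote, above the 0.692% of the WT library. In the labelled homozygote they made up 0.0411%, and in the 4 other libraries 0.683% to 0.736%. What lies behind these shares was not tested. Of the genes compared, 626 share over 30% of their exon bases with another gene, and 13.3% of them were higher and 18.1% lower, beside 11.1% and 16.9% of the 12474 others with a known length.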

How the results depend on the processing

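No paired analysis was possible because each genotype has 1 library, and no replicate could be left out. With a threshold of 1.5-fold, 2889 genes were higher, and with 4-fold 343 were higher and 1110 lower. With intervals widened by the spread of all 6 libraries 216 were higher and 850 lower, and with that of the other 4 libraries 640 were higher. Restricted to genes of middle exon length, 674 were higher and 1135 lower, but this restriction also keeps fewer genes. The shares stayed close to those of all genes compared, 11.1% higher and 17.1% lower. Of 4 equal bins of exon length, the middle ones held 3140 and 3141 genes. In these bins 10.4% and 10.3% were higher, and 17.2% and 17.3% were lower. At 1.5-fold the labelled homozygote lay above the other 4 libraries for 1610 of the genes called higher in it, and the labelled double heterozygote below them for 854; among those called lower, the labelled double heterozygote lay above for 1406. At 4-fold these numbers were 154, 75 and 211, and the labelled homozygote lay below for 575 of those lower. Among lists whose main median log2 ratio was 1 or more in size, the only ones counted here, the medians of 3 changed sign. That of blood and liver markers became -0.84 with a 5 CPM filter, with 1 CPM in both libraries and with middle exon lengths, that of small structural RNAs -2.13 with 1 CPM in both, where Rn18s alone was left, and that of germ and pluripotent markers 0.76 with 1 CPM in both and with middle lengths, each over 1 gene. Single named genes were run under other scalings, fold thresholds and wider intervals only. Thresholds and interval widths leave a ratio unchanged, and the scalings shifted ratios by little, so no called direction could turn. Of the calls of the named genes under these alternatives 3875 were the same, 497 were lost and 20 gained. Of the counts per list, 265 moved by over 1.5 times and 1097 did not. The scaling moved few calls: DESeq2 size factors ended the calls of Ier3 and Sox9, and unscaled totals those of Dnajb9, Ier3, Sox9 and Tek and added Acly. TMM over the pair alone and TMM without structural RNAs changed none. Genes under about 1 CPM have intervals that span several-fold, and ratios against 1 to 3 counts are uncertain in size. The median ratio over genes was 0.15 in the shortest of 4 equal bins of exon length and -0.05 in the longest.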

Other observations

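Medians by chromosome lay close to 0. Over coding genes without histones, chromosome 13 had the highest median log2 ratio, 0.22 over 460 genes, chromosome 7 the lowest, -0.11 over 950 genes, and chromosome X stood at 0.04 over 431 genes. Each of these is small beside the spread of single genes, with quartiles of -0.57 and 0.76 on chromosome 13.

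Spectrin and ankyrin genes other than Spnb2 gave 1 higher (10%) and 2 lower (20%) of 10 compared, near the 11.1% and 17.1% of all genes. Ankyrin 1 (Ank1) was 3.05-fold (interval 2.43 to 3.84) higher, ankyrin 2 (Ank2) 3.18-fold (interval 2.91 to 3.47) lower and adducin 3 (Add3), which caps actin at spectrin junctions, 2.52-fold (interval 2.36 to 2.7) lower. The partner chain gene Spna2 was not called, at 693 CPM against 494 CPM.

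Of 20 genes of telomerase, shelterin, CTCF and cohesin, 3 were higher (15%) and 0 lower, beside 11.1% and 17.1% of all genes. Dyskerin (Dkc1), which binds telomerase RNA and box H/ACA RNAs, stood at 125 CPM in the labelled homozygote, 29.2 CPM in the labelled double heterozygote and 61.5, 67.7, 64.3 and 94.1 CPM in the other 4, and was 4.27-fold (interval 3.96 to 4.61) higher. Telomerase RNA (Terc) had 47 counts against 0, at least 21.9-fold higher, and is a transcript without a poly(A) tail. The cohesin gene Rad21 was not called, at 231 CPM against 192 CPM.

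A few liver transcripts were higher in the labelled homozygote, at low level. Albumin (Alb) stood at 4.09 CPM against 0.159 CPM, with 0 to 0.299 CPM in the other 4, and apolipoprotein B (Apob) at 4.18 CPM against 0.0955 CPM, with 0 to 1.65 CPM in the other 4. The gene Prdm1, which encodes a transcriptional repressor with roles in germ and lymphoid cells, was 12.5-fold (interval 8 to 20.8) lower. Both libraries of the pair were below the 16.1 to 34.2 CPM of the other 4 for it.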
